A study of Oreochromis niloticus with 6 samples.

Results

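The extracellular matrix genes of the liver transcriptome of male Nile tilapia (Oreochromis niloticus) are described here, together with the proteases that cut the matrix and the receptors that bind it. A gene was a member where its product description in the deposited gene table opened with collagen alpha, laminin subunit, fibronectin, matrix metalloproteinase, metalloproteinase inhibitor, integrin alpha, integrin beta, decorin, lumican, nidogen, lysyl oxidase, stromelysin or collagenase. The wording picked out 214 of the 29528 genes in the table, and 142 of the 214 carried only a locus number as their name. By description the members fell into 18 fibrillar collagens, 64 other collagens, 26 basement membrane genes, 11 other matrix proteins and cross-linking enzymes, 29 proteases and inhibitors, 49 integrin receptors, and 17 genes named only for a fibronectin-like domain or for binding an integrin. Where a locus number stood for the name, the symbol added in brackets is that of the RefSeq gene table of the assembly O_niloticus_UMD_NMBU, whose start and end matched the deposited ones for all 214 members, and coordinates are of that assembly.

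The study measured poly(A) RNA by sequencing from 6 liver libraries. The 3 elovl6 knockdown libraries came from males in which elovl6, the elongase that lengthens palmitate to stearate, was targeted with antisense RNA, and the 3 control libraries came from negative control males labelled as wild type. All fish of both groups ate a pellet diet with 5% palm oil, and no age is given in the labels. The labels put 9 fish in each group and say that RNA of the 3 replicate tanks of a group was pooled, without making clear whether the libraries of a group hold separate fish, so p-values measure the spread between libraries, which may be technical. The treatment text of the control libraries also names antisense RNA against elovl6, and what the control fish received is not otherwise given.

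Collagens are triple-helical proteins that form the fibrils and networks of connective tissue. In the liver most fibrillar collagen is made by stellate cells and portal fibroblasts, and collagen IV, laminins and nidogens build the sheets that underlie endothelium and bile duct epithelium. Lysyl oxidases cross-link collagen and elastin, matrix metalloproteinases (MMPs) cut matrix proteins, tissue inhibitors of metalloproteinases (TIMPs) block the MMPs, and integrins, which pair an alpha with a beta chain, hold cells to the matrix or to each other.

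Libraries held 14341242 to 14973737 counted reads in the knockdown group and 15322360 to 17245179 in the control group. The targeted gene elovl6 averaged 37.6 ± 1.48 FPKM (counted reads divided by gene length and by the library's total) in knockdown livers and 162 ± 1.53 FPKM in control livers (SD, n = 3 each; log2 fold change −2.12 ± 0.05 SE, edgeR adjusted p = 1.58e-22). An exact 2-sided permutation test on these 6 values gave p = 0.1, the smallest that 3 against 3 libraries allow. The whole transcriptome differed widely. Of the 11431 genes with a mean of at least 1 FPKM, edgeR's quasi-likelihood test called 39.1% higher and 39.1% lower in knockdown livers at an adjusted p under 0.05, so a call by itself does not set a gene apart from the rest of the table. Hepatocyte markers, 4 of 11 higher and 6 lower, dominated both groups with summed levels of 50800 to 51000 FPKM in knockdown and 79100 to 81800 FPKM in control libraries, and exocrine pancreas markers, a tissue scattered within the liver in tilapia, were lower for all 6 tested of 7 and summed to 123 to 217 FPKM in knockdown and 27700 to 28100 FPKM in control libraries. The part of this difference in the matrix values was not tested.

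Of the 214 matrix genes, 52 reached a mean of 1 FPKM and were tested, 162 lay below that level, and 47 of those had no read in any library. Among the 52 tested genes 33 were higher in knockdown livers (63.5%, against 39.1% of all genes tested), 9 were lower (17.3%, against 39.1%) and 10 did not pass. The knockdown and control values of 46 of the 52 did not overlap (88.5%), against 79.5% of all genes tested. Their median log2 fold change was 1.00, and that of all genes tested was −0.01. For 16 of the 52, 1 of the groups averaged under 1 FPKM, so that the level in the other group carried them over the filter. When both groups had to average at least 1 FPKM, 36 members were left, 20 of them higher and 6 lower, where 38.2% and 37.6% of all genes under that filter were higher and lower. Of the 17 members with a mean of at least 5 FPKM 8 were higher and 4 lower, against 42.8% and 42.4% of all such genes. Without a filter, 54 of the 167 members with a read were higher and 29 lower, against 26.5% and 25.9% of all genes with a read. The direction differed between classes. Tested proteases, basement membrane genes, cross-linking enzymes and integrin alpha chains were mostly higher. The 3 non-fibrillar collagens called outside the basement membrane were all lower, and 2 of them averaged under 1 FPKM in knockdown livers. Counts of each class and marker list below are to be read beside the shares of all genes tested, 39.1% higher and 39.1% lower.

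**Figure D1:**
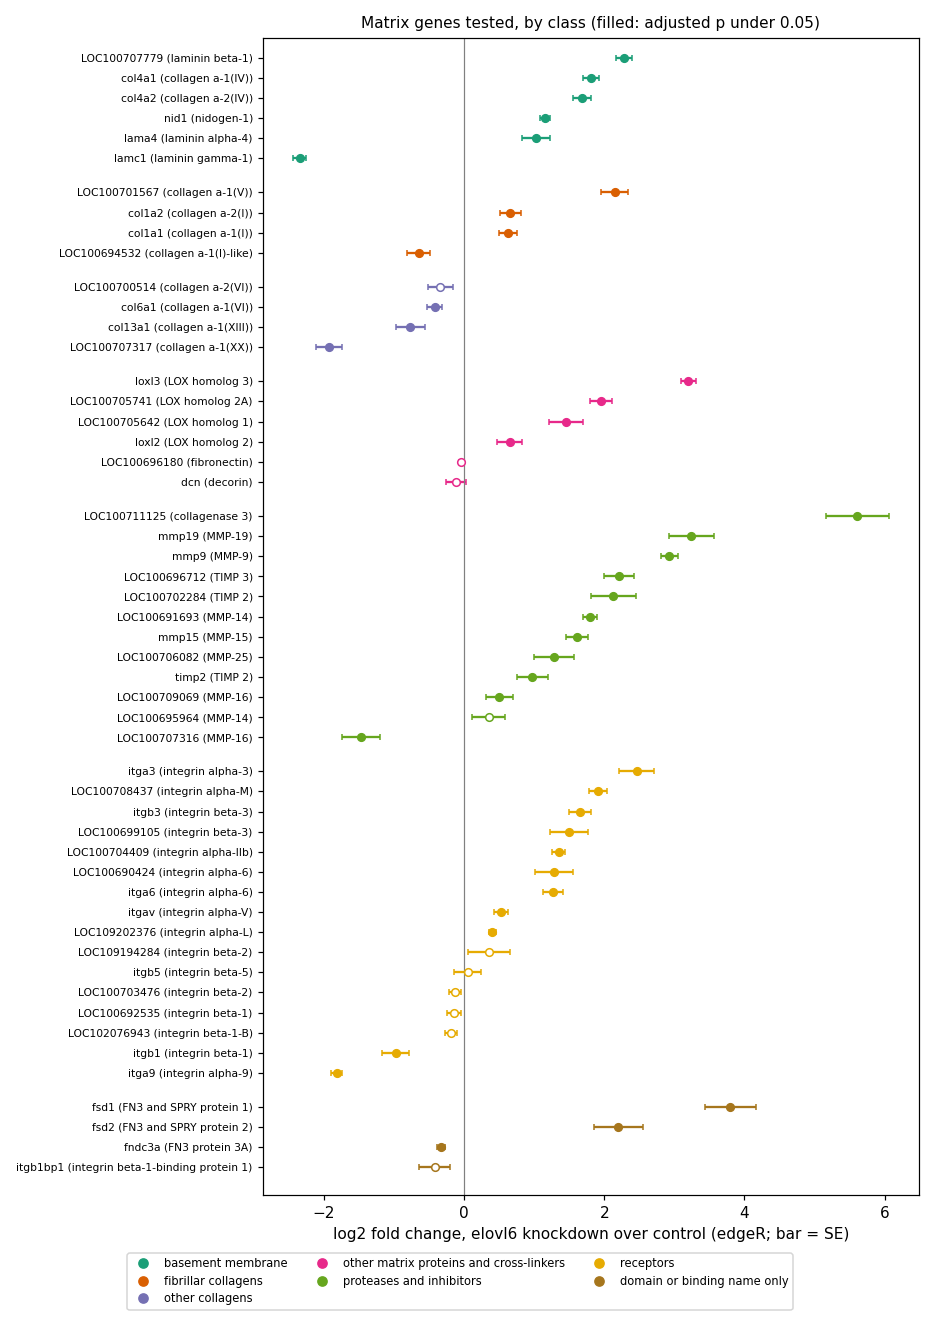
Log2 fold change of knockdown over control (x axis) for the 52 matrix genes tested, grouped by class down the page, with bars for the standard error. Filled points passed at an edgeR adjusted p under 0.05 (33 higher, 9 lower) and hollow points did not (10).

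Knockdown livers held more RNA of 5 of the 6 basement membrane genes tested and less of the other, laminin gamma-1. The class has 26 genes, and its summed level overlapped between the groups, at 47.7 to 52.9 FPKM in knockdown and 45.9 to 48.8 FPKM in control libraries. lamc1 encodes the gamma-1 chain that most laminin trimers share, and lies on linkage group 18. It measured 5.9, 5.1 and 7.85 FPKM in knockdown libraries, against 30.9, 33.8 and 30.9 FPKM in control libraries. The groups lay far apart, and the gene was 5.09-fold lower in knockdown livers (log2 fold change −2.35 ± 0.09 SE, edgeR adjusted p = 8.65e-18). The laminin beta-1 gene LOC100707779 (lamb1a) on linkage group 7 went the other way. It read 7.71, 8.58 and 8.9 FPKM in knockdown libraries, against 1.58, 1.8 and 1.77 FPKM in control libraries. Every knockdown library lay above every control library, by 4.87-fold in the fit (log2 fold change 2.28 ± 0.11 SE, edgeR adjusted p = 4.37e-16).

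The alpha chain lama4, found in laminins of blood vessels in mammals, measured 1.53, 2.56 and 2.19 FPKM in knockdown libraries, against 1.02, 0.803 and 1.23 FPKM in control libraries. Its groups did not overlap, and its log2 fold change was 1.03 ± 0.20 SE (edgeR adjusted p = 4.38e-05). A laminin trimer takes 1 alpha, 1 beta and 1 gamma chain, so levels per length were summed by chain type over the 14 laminin genes among the members. The alpha chains summed to 3.51 ± 0.57 FPKM in knockdown and 1.51 ± 0.185 FPKM in control livers, and the beta chains to 9.15 ± 0.638 FPKM in knockdown and 1.97 ± 0.163 FPKM in control livers (SD, n = 3 each). The gamma chains, almost all of it lamc1, summed to 6.28 ± 1.42 FPKM in knockdown and 31.9 ± 1.69 FPKM in control livers. Gamma chain RNA thus exceeded alpha and beta chain RNA together in each control library, whereas in each knockdown library the beta sum was above the gamma sum.

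Collagen IV forms the network of basement membranes from trimers of its alpha chains. col4a1 measured 5.7, 4.91 and 5.83 FPKM in knockdown libraries, against 1.55, 1.52 and 1.58 FPKM in control libraries (log2 fold change 1.81 ± 0.11 SE, edgeR adjusted p = 1.33e-13). Its partner col4a2 measured 4.81, 4.13 and 4.86 FPKM in knockdown libraries, against 1.21, 1.62 and 1.46 FPKM in control libraries (1.68 ± 0.13 SE, edgeR adjusted p = 1.6e-11). Neither gene's groups overlapped, and the confidence intervals of their log2 fold changes, 1.60 to 2.03 for col4a1 and 1.43 to 1.94 for col4a2 (95%), did. The pair stands head to head on linkage group 16, col4a1 on the minus strand at 20196900 to 20243507 and col4a2 on the plus strand at 20243619 to 20309356, with 111 bases between the annotated genes. nid1 encodes nidogen-1, which links laminin to collagen IV, and measured 19.4, 18.7 and 18.9 FPKM in knockdown libraries, against 8.41, 7.88 and 9.1 FPKM in control libraries. That is a log2 fold change of 1.15 ± 0.07 SE (edgeR adjusted p = 3.13e-13) with no overlap between groups.

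Below 1 FPKM a second fit, run on all 22678 genes with at least 1 read, gives what can be said of the weaker members. It moved the log2 fold changes of genes in both fits by a median of −0.096. Of the genes below the filter with at least 30 reads in a group, 35.7% were higher and 19.5% lower in that fit, and 44 matrix genes met the same minimum, with 21 higher, 10 lower and 13 not past. They include 8 basement membrane genes, of which 6 were higher and 2 did not pass. The col4a5 and col4a6 genes, again head to head, on linkage group 3 with 1527 bases between them, had 254 reads in knockdown and 44 in control libraries, and 174 reads in knockdown and 33 in control libraries. Their log2 fold changes were 2.59 ± 0.35 SE for col4a5 and 2.45 ± 0.42 SE for col4a6. LOC100700481, described in the table as collagen alpha-5(IV) and given the symbol col4a3 in RefSeq, had 141 reads in knockdown and 44 in control libraries (1.72 ± 0.42 SE). The laminin genes lama5 (1.76 ± 0.23 SE), lama3 (1.20 ± 0.28 SE) and LOC100706244 (lamb2, 1.86 ± 0.38 SE) were also higher. nid2, the other nidogen gene among the members, ranged from 0.00957 to 0.367 FPKM among knockdown libraries, a span that covered all control values. Neither nid2 nor the second laminin beta-1 gene LOC100690471 (lamb1b) passed.

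**Figure D2:**
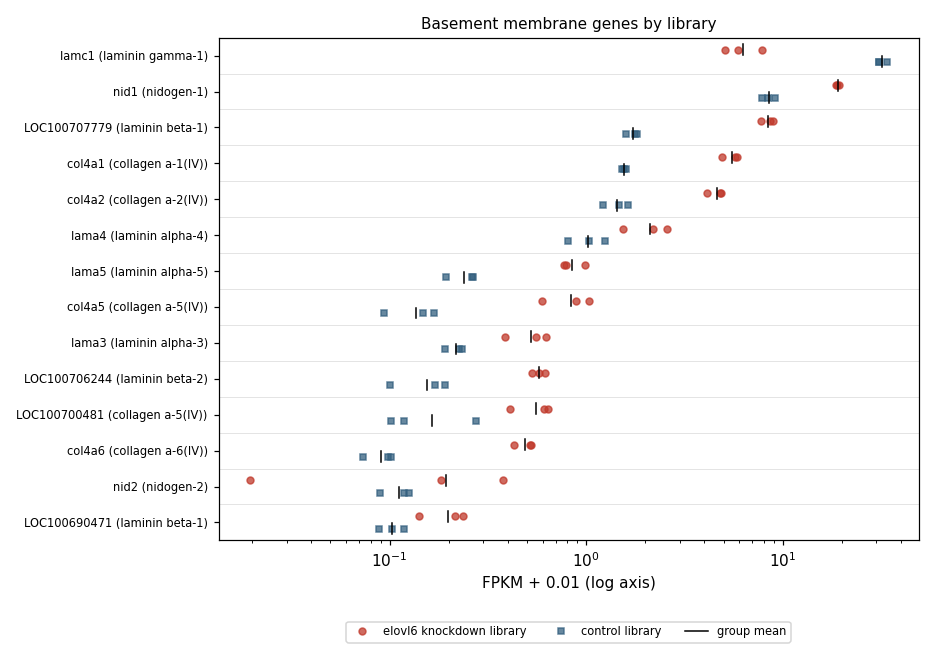
FPKM in each of the 3 knockdown (circles) and 3 control (squares) libraries, with group means as vertical marks, for basement membrane genes that were tested or had at least 30 reads in a group (log axis, 0.01 added). lamc1 is the only gene whose knockdown libraries all lie below the control libraries, at 5.1 to 7.85 against 30.9 to 33.8 FPKM.

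In bulk liver a change in how many cells of a type are present and a change in RNA per cell cannot be told apart. Endothelial markers moved in the same direction as 5 of the 6 basement membrane genes tested. All 10 tested of 15 were higher, against 39.1% of all genes tested. The list summed to 115 to 122 FPKM in knockdown and 43.2 to 45.8 FPKM in control libraries. The defining endothelial gene cdh5 averaged 5.74 FPKM in knockdown and 1.97 FPKM in control livers. Under the filter, vwf was lower, at 0.0276 FPKM in knockdown and 0.243 FPKM in control livers. So was LOC100707843 (pecam1a), at 0.0772 FPKM in knockdown and 0.315 FPKM in control livers. LOC100710323 (pecam1b), LOC100707822 (lyve1b) and stab1, also under the filter, averaged higher. None of these weaker genes overlapped between groups. Bile duct markers were higher for all 5 tested of 7, with sums of 371 to 386 FPKM in knockdown and 232 to 248 FPKM in control libraries. Most of that sum was the keratin 18 gene LOC100692632, at 317 FPKM in knockdown and 222 FPKM in control livers. The sum therefore follows mainly that gene and does not by itself measure bile duct cells. Below the filter, cftr averaged 0.278 FPKM in knockdown and 0.392 FPKM in control livers, with overlap. The part of either cell type in the basement membrane values was not tested.

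Fibrillar collagens did not all change in the same direction. Of the 18 genes 4 were tested, 3 of them higher and 1 lower in knockdown livers. LOC100701567 (col5a1) encodes the collagen V chain that helps start and limit the width of collagen I fibrils. Its levels were 1.66, 2.16 and 1.92 FPKM in knockdown libraries, against 0.402, 0.571 and 0.321 FPKM in control libraries. The groups did not overlap and the gene was 4.44-fold higher (log2 fold change 2.15 ± 0.19 SE, edgeR adjusted p = 2.39e-10). It averaged 0.431 FPKM in control livers, so its knockdown level carried it over the filter.

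Collagen I, the main fibril collagen, is built from alpha-1 and alpha-2 chains. col1a1 read 3.57, 3.24 and 4.18 FPKM in knockdown libraries, against 2.69, 2.12 and 2.25 FPKM in control libraries (log2 fold change 0.63 ± 0.13 SE, edgeR adjusted p = 0.000149). col1a2 read 3.19, 4.32 and 4.44 FPKM in knockdown libraries, against 2.61, 2.37 and 2.52 FPKM in control libraries (0.66 ± 0.15 SE, edgeR adjusted p = 0.000244). Both rose without overlap. The second alpha-1(I) gene, LOC100694532 (col1a1b) on linkage group 8, fell: it read 1.69, 1.35 and 1.92 FPKM in knockdown libraries, against 2.51, 2.91 and 2.34 FPKM in control libraries (−0.65 ± 0.16 SE, edgeR adjusted p = 0.000715). The alpha-1(I) copies together gave 5.32 ± 0.755 FPKM in knockdown and 4.94 ± 0.319 FPKM in control livers (SD, n = 3 each), and these sums overlapped between the groups. How reads that match more than 1 place were counted is not given in the sources used here, so the split between these copies is uncertain, as it is for the other copies named below.

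Of 5 weaker fibrillar genes with at least 30 reads in a group, 4 were lower and 1 did not pass in the fit without a filter. The shares of all genes below the filter with as many reads were 35.7% higher and 19.5% lower. LOC100698351 (col27a1b) had 66 reads in knockdown and 232 in control libraries (log2 fold change −1.76 ± 0.33 SE). LOC100695815, an alpha-1(XI) chain by description and col5a3a in RefSeq, had 34 reads in knockdown and 86 in control libraries (−1.25 ± 0.52 SE), and col24a1 had 59 in knockdown and 124 in control libraries (edgeR adjusted p = 0.0313 without a filter). LOC100700290 (col11a1b) had 3 reads in knockdown and 39 in control libraries. Per counted read the control level was 11.6 times that of knockdown, with an exact 95% interval for counting error of 3.68 to 58.5, and the libraries of the groups overlapped.

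Markers of stellate cells and fibroblasts, the usual source of fibrillar collagen in liver, gave a mixed picture. Of 8 tested, 3 were higher and 2 lower. The list summed to 46.0 to 50.3 FPKM in knockdown and 19.9 to 25.6 FPKM in control libraries. Its rgs5 gene LOC100708109 averaged 24.9 FPKM in knockdown and 4.76 FPKM in control livers. The difference in the sum therefore follows mainly rgs5 and does not by itself measure these cells. The smooth muscle actin gene acta2 averaged 5.13 FPKM in knockdown and 5.75 FPKM in control livers and did not pass. The lower genes were tcf21 (log2 fold change −2.17 ± 0.60 SE, edgeR adjusted p = 0.00218), without overlap, and pdgfra (−0.57), whose groups overlapped. The higher genes were pdgfrb (1.53) and the rgs5 genes LOC100708109 and LOC100702567, and cygb had no reads. Below the filter, LOC100695577 (lrata) averaged 0.885 FPKM in knockdown and 0.051 FPKM in control livers, without overlap. The weak genes hand2 and LOC100712580 (lratb.2) averaged lower, with overlap. The part of these cells in the collagen values was not tested.

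Outside fibrils and basement membranes, the collagens that passed the test were lower in knockdown livers. This is the largest class, with 64 genes, but only 4 were tested, with 3 lower and 1 not past, and 23 had no reads. For 2 of the 4, LOC100707317 and col13a1, the knockdown group averaged under 1 FPKM, so the control level carried them over the filter. LOC100707317, described as collagen alpha-1(XX), a chain that associates with fibrils, measured 0.926, 0.689 and 0.478 FPKM in knockdown libraries, against 2.43, 3.11 and 2.42 FPKM in control libraries. The groups did not overlap, and the log2 fold change was −1.93 ± 0.19 SE (edgeR adjusted p = 1.46e-09). The RefSeq table gives this locus the symbol slc35h1, so its identity as a collagen rests on the deposited description alone. col13a1 encodes collagen XIII, which spans the cell membrane. It measured 0.873, 0.761 and 1.06 FPKM in knockdown libraries, against 1.25, 1.71 and 1.61 FPKM in control libraries (−0.77 ± 0.21 SE, edgeR adjusted p = 0.00223).

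Collagen VI forms beaded filaments close to cells. col6a1 was the highest gene of the class, at 5.98, 4.71 and 4.61 FPKM in knockdown libraries, against 6.91, 6.89 and 6.5 FPKM in control libraries, and was lower without overlap by a small margin (log2 fold change −0.42 ± 0.11 SE, edgeR adjusted p = 0.0011). Its neighbour on linkage group 18, LOC100700514 (col6a2), measured 2.44, 2.13 and 3.77 FPKM in knockdown libraries, against 3.91, 3.57 and 2.99 FPKM in control libraries. The groups overlapped and the gene did not pass (−0.34 ± 0.18 SE, 95% interval −0.69 to 0.02, edgeR adjusted p = 0.0904). Without the third knockdown library it passed at −0.62 (edgeR adjusted p = 0.00263), and without a filter at −0.43 (edgeR adjusted p = 0.0131). The latter fit moved log2 fold changes of all genes by a median of −0.096. The other 18 collagen VI genes lay below 1 FPKM and held 75 reads in knockdown and 288 in control libraries, most of them from col6a6 (51 in knockdown and 263 in control libraries, log2 fold change −2.30 ± 0.34 SE without a filter).

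Among 12 weaker genes of the class with at least 30 reads in a group, 5 were higher and 4 lower. The shares of all genes below the filter with as many reads were 35.7% higher and 19.5% lower. Besides col6a6 the lower ones were LOC109202475, another alpha-1(XIII) gene, col16a1 (−1.19 ± 0.31 SE) and LOC102075793 (col17a1b, −1.17 ± 0.31 SE). LOC109202475 had 7 reads in knockdown and 186 in control libraries, 23.6 times more per counted read in control (exact 95% interval 11.2 to 59.6). The higher ones lead with collagen IX, which sits on the surface of cartilage fibrils. LOC100699811 (col9a1b) had 50 reads in knockdown libraries and 1 in control libraries, a ratio of 56.2 with an exact 95% interval of 9.64 to 2264. col9a3 had 85 reads in knockdown and 10 in control libraries (ratio 9.56, interval 4.95 to 20.6), with 1.27, 0.761 and 0.26 FPKM in knockdown libraries, against 0.0942, 0 and 0.136 FPKM in control libraries. Every knockdown library was above every control library, although the knockdown libraries differed widely among themselves. LOC100709112 (col14a1b) had 51 reads in knockdown and 7 in control libraries, LOC100697399 (col21a1) had 229 in knockdown and 50 in control libraries (log2 fold change 2.25 ± 0.35 SE), and LOC100698485 (col12a1a) had 118 in knockdown and 50 in control libraries (1.30 ± 0.43 SE).

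**Figure D3:**
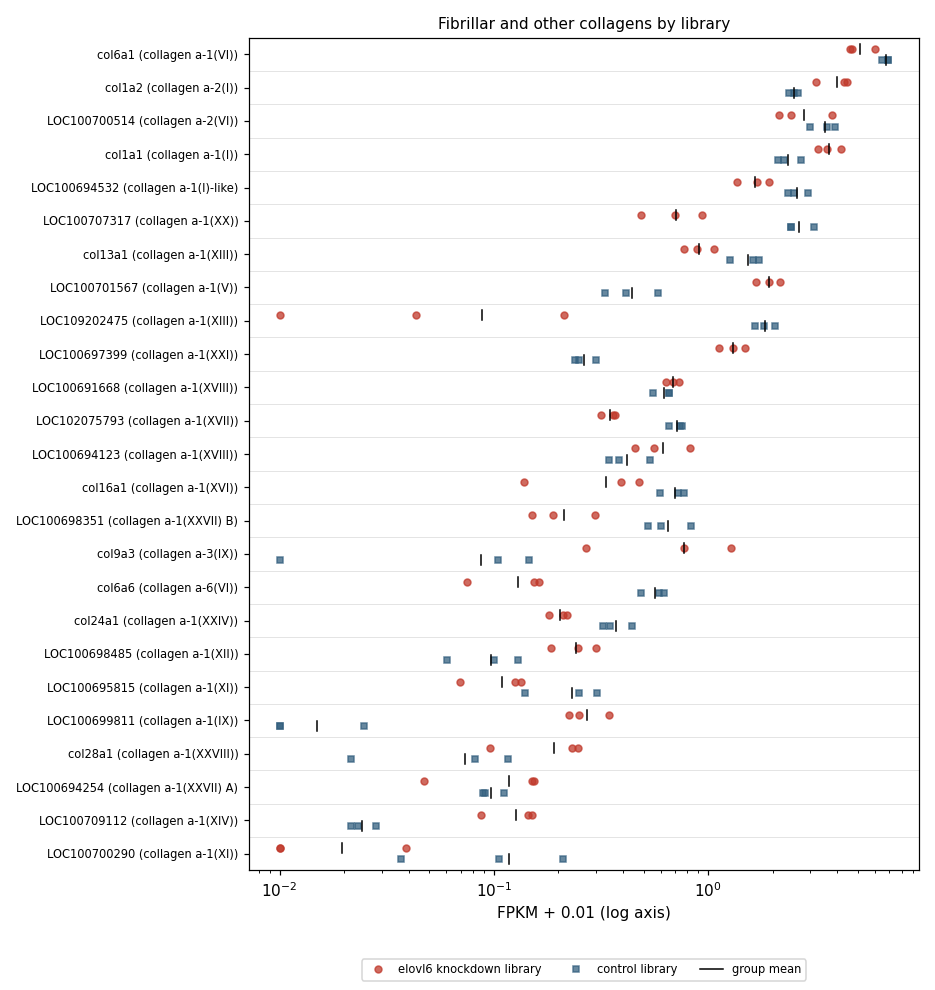
FPKM in each knockdown (circles) and control (squares) library for fibrillar and other collagens that were tested or had at least 30 reads in a group, with group means as vertical marks (log axis, 0.01 added). LOC100701567 (col5a1) lies higher in knockdown libraries and LOC100707317 lower, while col1a1 and its copy LOC100694532 differ in opposite directions.

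All 4 lysyl oxidase genes tested were higher in knockdown livers, whereas fibronectin and decorin did not pass. loxl3 had the largest change among the 6 tested of the 11 genes in this class. It read 14.9, 13.8 and 13.4 FPKM in knockdown libraries, against 1.66, 1.46 and 1.44 FPKM in control libraries. The groups stood 9.17-fold apart (log2 fold change 3.20 ± 0.11 SE, edgeR adjusted p = 2.11e-18). LOC100705741 (loxl2a) read 6.07, 6.17 and 8.53 FPKM in knockdown libraries, against 1.49, 2.06 and 1.8 FPKM in control libraries (1.95 ± 0.16 SE, edgeR adjusted p = 7.95e-11). LOC100705642 (loxl1) read 1.77, 2.02 and 2.38 FPKM in knockdown libraries, against 0.756, 0.996 and 0.504 FPKM in control libraries (1.45 ± 0.24 SE, edgeR adjusted p = 6.51e-06). Neither gene's groups overlapped. loxl2 changed least of these, with 1.82 ± 0.204 FPKM in knockdown and 1.15 ± 0.146 FPKM in control livers (SD, n = 3 each; 0.65 ± 0.18 SE, edgeR adjusted p = 0.0018). Of the 4, only LOC100705642 averaged under 1 FPKM in a group, at 0.752 FPKM in control livers. Its knockdown level carried it over the filter.

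Fibronectin, a plasma and matrix glycoprotein that hepatocytes secrete in large amounts, was the most abundant RNA of all members. LOC100696180 (fn1b) on linkage group 1 measured 611, 618 and 611 FPKM in knockdown libraries, against 622, 632 and 635 FPKM in control libraries. Although the values did not overlap, the difference was small and did not pass (log2 fold change −0.05 ± 0.03 SE, 95% interval −0.10 to 0.00, edgeR adjusted p = 0.0951), and its sign depended on the filter, being −0.14 without one (edgeR adjusted p = 7.07e-09) and 0.01 where a mean of at least 5 FPKM was asked. Without the first control library it passed at −0.04 (edgeR adjusted p = 0.0436). The fit without a filter moved log2 fold changes of all genes by a median of −0.096, so the pass there is not evidence on this gene alone. This gene made up most of the summed level of the whole class, and the other 196 matrix, protease and receptor genes, without the 17 named for a domain or for binding, summed to 324 ± 11.3 FPKM in knockdown and 237 ± 12 FPKM in control livers (SD, n = 3 each). The second fibronectin gene, LOC100689834 (fn1a), had only 172 reads in knockdown and 59 in control libraries (1.59 ± 0.37 SE without a filter). Decorin, a small proteoglycan that coats collagen fibrils, read 5.12, 5.84 and 5.72 FPKM in knockdown libraries, against 6.08, 5.87 and 6.09 FPKM in control libraries. It did not pass (dcn log2 fold change −0.12 ± 0.14 SE, 95% interval −0.41 to 0.16, edgeR adjusted p = 0.442).

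The proteases and inhibitors tested were mostly higher in knockdown livers, with 10 of 12 tested genes higher, 1 lower and 1 not past. That is 83.3% higher and 8.33% lower, against 39.1% and 39.1% of all genes tested. For 7 of the 12, 1 of the groups averaged under 1 FPKM. It was the knockdown group for LOC100707316 and the control group for the rest, all of them called higher. The knockdown level carried those genes over the filter. The 25 metalloproteinase genes summed to 45 ± 1.6 FPKM in knockdown and 12.4 ± 0.728 FPKM in control livers, and the 4 inhibitor genes to 11.2 ± 0.969 FPKM in knockdown and 3.85 ± 0.99 FPKM in control livers (SD, n = 3 each). Protease and inhibitor RNA were thus both higher in knockdown livers, and neither sum overlapped between groups.

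Collagenase 3 (MMP-13) cuts fibrillar collagen within its triple helix. LOC100711125 (mmp13a) on linkage group 10 measured 3.71, 4.9 and 4.69 FPKM in knockdown libraries, against 0.2, 0.0616 and 0 FPKM in control libraries, and the groups did not overlap. It had 411 reads in knockdown and 9 in control libraries, a ratio per counted read of 51.3 with an exact 95% interval of 26.8 to 113 that covers counting error only. The fitted log2 fold change was 5.61 ± 0.45 SE (edgeR adjusted p = 2.57e-11), and 7.08 without the first control library, which held most of the control reads. A second collagenase 3 gene some 37156 bases away, LOC100711395, had 116 reads in knockdown libraries and 0 in control libraries. Set against a floor of 3 reads over the control group, that is at least 43.5-fold higher. Another collagenase 3 gene beside them, LOC100711668, had 4 reads in knockdown and 29 in control libraries, the opposite direction at a low count. Together with the MMP-18 gene LOC109203849 the 4 genes in this stretch of linkage group 10 held 538 reads in knockdown and 38 in control libraries, so their sum, which does not depend on how reads were split between copies, was higher in knockdown livers.

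The gelatinase mmp9, an enzyme of neutrophils and macrophages that degrades collagen IV and denatured collagen, measured 13.2, 12.4 and 12.5 FPKM in knockdown libraries, against 1.49, 1.71 and 1.78 FPKM in control libraries. The groups stood 7.61-fold apart (log2 fold change 2.93 ± 0.12 SE, edgeR adjusted p = 4.16e-17). mmp19 measured 3.23, 3.4 and 4.52 FPKM in knockdown libraries, against 0.315, 0.556 and 0.302 FPKM in control libraries (3.24 ± 0.32 SE, edgeR adjusted p = 1.9e-09). Among the MMPs held in the cell membrane, LOC100691693 (mmp14a), whose mammalian counterpart activates pro-MMP-2, was the most abundant MMP of the list. It measured 12.8, 14.1 and 13.8 FPKM in knockdown libraries, against 3.76, 3.9 and 3.99 FPKM in control libraries (1.80 ± 0.10 SE, edgeR adjusted p = 7.77e-15). Neither gene's groups overlapped.

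The other membrane-type MMPs varied in size and direction of change. mmp15 averaged 2.34 ± 0.404 FPKM in knockdown and 0.764 ± 0.115 FPKM in control livers (log2 fold change 1.61 ± 0.16 SE), and LOC100706082 (mmp25b) 1.88 ± 0.464 FPKM in knockdown and 0.773 ± 0.119 FPKM in control livers (1.28 ± 0.29 SE), and both passed (edgeR adjusted p = 2.94e-09 for mmp15 and 0.000372 for LOC100706082). LOC100709069, MMP-16 by description and mmp15a in RefSeq, passed narrowly at 0.50 ± 0.19 SE (edgeR adjusted p = 0.022). It no longer passed without the third knockdown library, the first control library or the second control library, where the edgeR adjusted p was 0.0585, 0.11 and 0.0542 in that order, or in the fit without a filter (0.40, edgeR adjusted p = 0.0847). The second MMP-14 gene, LOC100695964 (mmp14b), averaged 1.67 ± 0.216 FPKM in knockdown and 1.30 ± 0.226 FPKM in control livers, with overlap, and did not pass (0.35 ± 0.24 SE, 95% interval −0.12 to 0.82, edgeR adjusted p = 0.186). LOC100707316 (mmp16a) was the only lower MMP among those tested, at 0.474, 0.475 and 0.737 FPKM in knockdown libraries, against 1.28, 1.72 and 1.66 FPKM in control libraries. Its groups did not overlap (−1.47 ± 0.27 SE, edgeR adjusted p = 3.32e-05).

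TIMP-3, which binds to the matrix, and TIMP-2, which in mammals also takes part in activating MMP-2, were higher. LOC100696712, the TIMP-3 gene, measured 4.29, 4.09 and 4.39 FPKM in knockdown libraries, against 0.779, 1.26 and 0.728 FPKM in control libraries (log2 fold change 2.21 ± 0.22 SE, edgeR adjusted p = 1.87e-09). The TIMP-2 genes differed in size of change: LOC100702284 (timp2b) had a log2 fold change of 2.13 ± 0.32 SE (edgeR adjusted p = 1.66e-06) and timp2 of 0.97 ± 0.22 SE (edgeR adjusted p = 0.000387). None of these 3 genes overlapped between groups. Below the filter, mmp23b had 87 reads in knockdown and 21 in control libraries (2.10 ± 0.57 SE), and timp4, with 48 in knockdown and 81 in control libraries, did not pass.

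**Figure D4:**
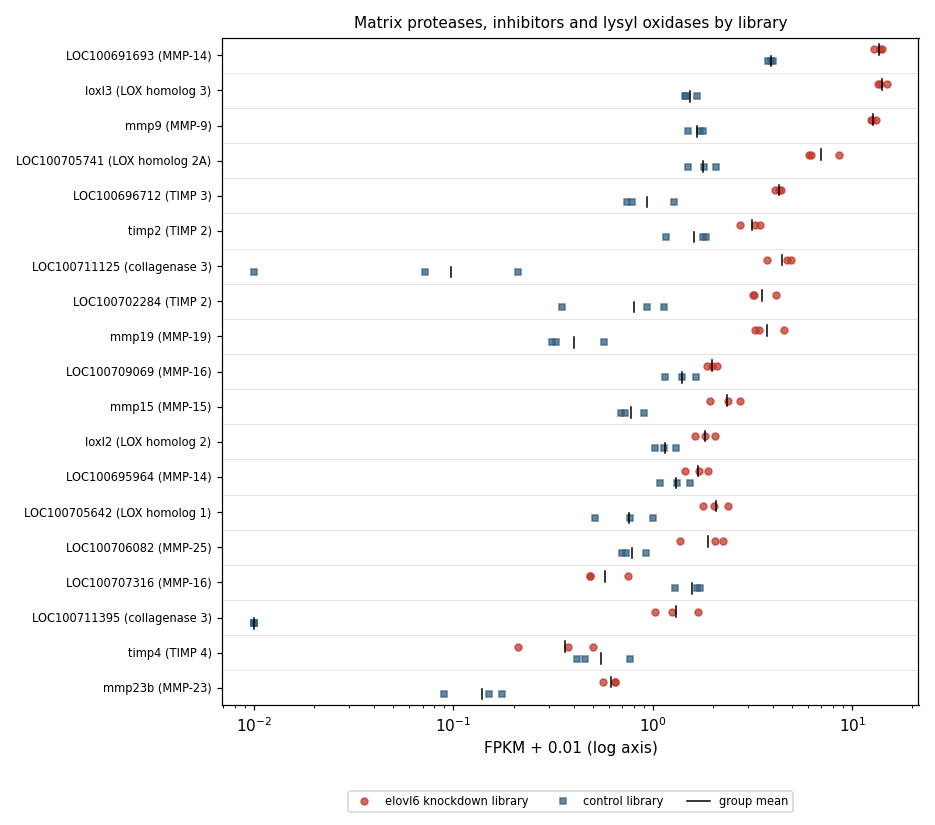
FPKM in each knockdown (circles) and control (squares) library for metalloproteinases, their inhibitors and lysyl oxidases that were tested or had at least 30 reads in a group, with group means as vertical marks (log axis, 0.01 added, so that the control libraries of LOC100711395, all at 0 reads, are drawn at 0.01). mmp9 lies at 12.4 to 13.2 FPKM in knockdown libraries, against 1.49 to 1.78 FPKM in control libraries, and LOC100707316 lies lower in knockdown libraries.

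Tested integrin alpha chains were mostly higher and beta chains mostly did not pass. Of 8 tested alpha chain genes 7 were higher and 1 lower, against 39.1% higher and 39.1% lower of all genes tested. Among the 7, itga3 and LOC100690424 averaged under 1 FPKM in control livers, so the knockdown level carried them over the filter. Of 8 tested beta chain genes 2 were higher, 1 was lower and 5 did not pass. For 1 of these 8 a group averaged under 1 FPKM. Chains that bind laminin include alpha-3 and alpha-6. itga3 measured 1.54, 1.59 and 2.24 FPKM in knockdown libraries, against 0.335, 0.326 and 0.311 FPKM in control libraries (log2 fold change 2.46 ± 0.25 SE, edgeR adjusted p = 2.63e-09). itga6 averaged 5.00 ± 0.628 FPKM in knockdown and 2.06 ± 0.135 FPKM in control livers, and LOC100690424 (itga6b) 1.50 ± 0.2 FPKM in knockdown and 0.615 ± 0.179 FPKM in control livers (SD, n = 3 each). The alpha-6 copies had close log2 fold changes, 1.27 ± 0.14 SE for itga6 and 1.28 ± 0.27 SE for LOC100690424 (edgeR adjusted p = 1.25e-08 and 0.000167). None of the 3 overlapped between groups.

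The alpha-9 chain, which in mammals binds tenascin and osteopontin, was the exception. itga9 measured 4.43, 3.61 and 4.15 FPKM in knockdown libraries, against 13.4, 14.4 and 15.2 FPKM in control libraries, 3.54-fold lower without overlap (log2 fold change −1.82 ± 0.08 SE, edgeR adjusted p = 3.88e-16). itga4, which is close to alpha-9 in sequence in mammals, lay below the filter with 63 reads in knockdown and 295 in control libraries (−2.15 ± 0.31 SE without a filter). itga8 had 5 reads in knockdown and 48 in control libraries, 8.54 times more per counted read in control (exact 95% interval 3.42 to 27.5).

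Beta-3 pairs with alpha-IIb on thrombocytes and with alpha-V on many cells. itgb3 measured 5.69, 6.76 and 5.93 FPKM in knockdown libraries, against 1.73, 2.01 and 2.07 FPKM in control libraries (log2 fold change 1.65 ± 0.16 SE, edgeR adjusted p = 9.22e-10). The second beta-3 gene LOC100699105 was higher by 1.50 ± 0.27 SE (edgeR adjusted p = 2.11e-05). LOC100704409 (itga2b), the alpha-IIb gene, measured 13.2, 12.9 and 14.3 FPKM in knockdown libraries, against 5.32, 5.47 and 4.96 FPKM in control libraries (1.35 ± 0.09 SE, edgeR adjusted p = 4.58e-13). itgav was higher by a smaller margin, at 6.18 ± 0.9 FPKM in knockdown and 4.27 ± 0.205 FPKM in control livers (0.53 ± 0.10 SE, edgeR adjusted p = 2.93e-05). All 4 were without overlap. Other thrombocyte markers did not all follow: of 5 tested, 2 were higher and 2 lower, with LOC100710205 (gp9) at 1.04 FPKM in knockdown and 5.03 FPKM in control livers. Their sum of 24.3 to 28.8 FPKM in knockdown and 13.3 to 18.0 FPKM in control libraries was mostly thpo in knockdown livers. That gene encodes a hormone that hepatocytes express, so it does not mark thrombocytes alone. It averaged 14.8 FPKM in knockdown and 1.05 FPKM in control livers and was among the higher genes. The other higher gene was LOC102083190 (gp1ba, 4.13 FPKM in knockdown and 1.98 FPKM in control livers), while gp9 and gp1bb were lower and mpl did not pass. The part of thrombocytes in the beta-3 and alpha-IIb values was not tested.

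Leukocyte integrins pair beta-2 with alpha-L or alpha-M. LOC109202376, an alpha-L gene, was the most abundant integrin, at 68.8, 70.2 and 73 FPKM in knockdown libraries, against 50.7, 59.5 and 50.2 FPKM in control libraries (log2 fold change 0.40 ± 0.05 SE, edgeR adjusted p = 1.19e-07). LOC100708437, an alpha-M gene, measured 4.84, 4.76 and 4.62 FPKM in knockdown libraries, against 1.27, 1.27 and 1.23 FPKM in control libraries (1.91 ± 0.13 SE, edgeR adjusted p = 7.48e-13). Neither overlapped between groups. The beta-2 genes LOC100703476 and LOC109194284, on linkage group 16 with 9118 bases between them, did not pass. LOC100703476 averaged 12.2 ± 0.449 FPKM in knockdown and 13.2 ± 0.562 FPKM in control livers (−0.13 ± 0.08 SE, 95% interval −0.28 to 0.03, edgeR adjusted p = 0.158), although its libraries did not overlap, and it passed without a filter (−0.22, edgeR adjusted p = 0.0273). That last fit moved log2 fold changes of all genes by a median of −0.096. LOC109194284 overlapped between groups and had a log2 fold change of 0.36 ± 0.30 SE (95% interval −0.23 to 0.94). A run of 16 alpha-M, alpha-D and alpha-X genes on linkage group 8, all under the filter and 5 of them without reads, held 529 reads in knockdown and 275 in control libraries, a log2 ratio per counted read of 1.11. Of these, LOC100709123 had 102 reads in knockdown and 8 in control libraries (ratio 14.3, exact 95% interval 7.01 to 34.1). White blood cell markers were higher for all 10 tested of 14, with ptprc, the pan-leukocyte gene, at 8.29 FPKM in knockdown and 3.12 FPKM in control livers. The list summed to 780 to 789 FPKM in knockdown and 280 to 301 FPKM in control libraries. Most of that was cd74 (360 FPKM in knockdown and 147 FPKM in control livers) and LOC100706178 (cd74b, 354 FPKM in knockdown and 121 FPKM in control livers). The T cell and B cell genes cd3e, lck, cd79a and cd79b lay below the filter and averaged lower in knockdown livers. Of these, cd79a averaged 0.538 FPKM in knockdown and 1.26 FPKM in control livers, without overlap. The groups overlapped for cd3e, cd79b and lck, and lck differed little, at 0.427 FPKM in knockdown and 0.461 FPKM in control livers. The part of white blood cells in the values of mmp9, LOC100706082 (mmp25b) and the leukocyte integrins was not tested.

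Beta-1 pairs with most alpha chains that bind collagen, laminin and fibronectin. Of its genes, itgb1 measured 1.25, 2.16 and 2.33 FPKM in knockdown libraries, against 4.14, 3.45 and 3.64 FPKM in control libraries, without overlap (log2 fold change −0.98 ± 0.19 SE, edgeR adjusted p = 4.46e-05). The more abundant LOC102076943 and LOC100692535 did not pass, at −0.19 ± 0.09 SE (95% interval −0.38 to −0.01, edgeR adjusted p = 0.0646) and −0.15 ± 0.10 SE (95% interval −0.35 to 0.04, edgeR adjusted p = 0.169). LOC102076943 passed without the third control library (−0.26, edgeR adjusted p = 0.029), and LOC100692535 without the second knockdown library (−0.27, edgeR adjusted p = 0.0202). Both also passed without a filter (−0.29 for LOC102076943, edgeR adjusted p = 0.00909, and −0.25 for LOC100692535, edgeR adjusted p = 0.0292). The fit without a filter moved log2 fold changes of all genes by a median of −0.096, so these passes are not evidence on the 2 genes alone. The beta-1 genes together gave 23.1 ± 1.96 FPKM in knockdown and 27.5 ± 1.49 FPKM in control livers (SD, n = 3 each). itgb5 did not pass either (0.05 ± 0.19 SE, 95% interval −0.33 to 0.43), and its sign changed between settings. Of 13 weaker integrin genes with at least 30 reads in a group, 7 were higher, 2 lower and 4 not past in that fit. Of all genes below the filter with as many reads, 35.7% were higher and 19.5% lower. The fibronectin-binding alpha-5 genes LOC100711983 (itga5; 336 reads in knockdown and 155 in control libraries, 1.18 ± 0.25 SE) and LOC100696606 (61 in knockdown and 12 in control libraries, 2.36 ± 0.73 SE) were higher, and itgb4 and itgb8 did not pass.

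**Figure D5:**
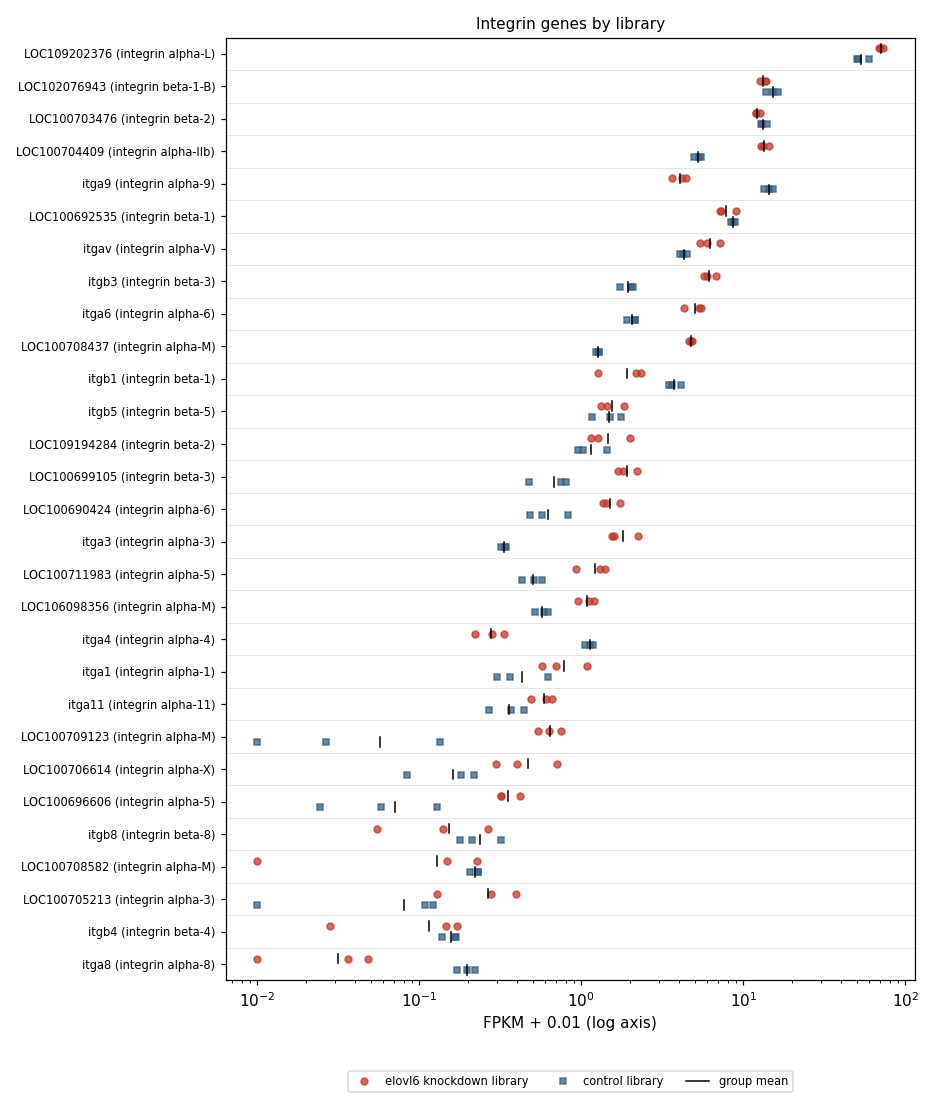
FPKM in each knockdown (circles) and control (squares) library for integrin genes that were tested or had at least 30 reads in a group, with group means as vertical marks (log axis, 0.01 added). LOC109202376 is highest in both groups, and itga9, at 3.61 to 4.43 FPKM in knockdown libraries against 13.4 to 15.2 FPKM in control libraries, and itgb1 are the tested genes called lower in knockdown livers.

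The 17 genes named only for a domain or for binding an integrin are not matrix proteins by that name. Of the 4 tested, fsd1 and fsd2 were higher, fndc3a was lower and itgb1bp1 did not pass. fsd1, a fibronectin type III and SPRY domain protein bound to microtubules in mammals, measured 2.51, 1.88 and 2.15 FPKM in knockdown libraries, against 0.159, 0.107 and 0.19 FPKM in control libraries (log2 fold change 3.80 ± 0.36 SE, edgeR adjusted p = 7.69e-10). fsd2 measured 2.02, 1.49 and 1.55 FPKM in knockdown libraries, against 0.263, 0.449 and 0.378 FPKM in control libraries (2.20 ± 0.35 SE, edgeR adjusted p = 3.67e-06). fndc3a, the most abundant of them, averaged 10.2 ± 0.24 FPKM in knockdown and 12.8 ± 0.878 FPKM in control livers (−0.33 ± 0.06 SE, edgeR adjusted p = 4.3e-05). These 3 did not overlap between groups, whereas itgb1bp1 did (−0.42 ± 0.22 SE, 95% interval −0.85 to 0.02, edgeR adjusted p = 0.088). Without the second knockdown or the second control library itgb1bp1 passed at −0.56 (edgeR adjusted p = 0.0399 and 0.0434), and without a filter at −0.51 (edgeR adjusted p = 0.0239). The latter fit moved log2 fold changes of all genes by a median of −0.096. Below the filter, fndc9 (34 reads in knockdown and 8 in control libraries) and fndc1 (7 in knockdown and 35 in control libraries) did not pass. fsd1 and fsd2 averaged under 1 FPKM in control livers, so their knockdown levels carried them over the filter. Leaving this class out gave 31 higher and 8 lower genes.

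Other genes of matrix biology, taken from lists and not from the member rule, were also more often higher than lower. Each list is to be read beside the shares of all genes tested, 39.1% higher and 39.1% lower. Of 21 tested genes for making and modifying collagen, 15 were higher and 5 lower. serpinh1, the chaperone that binds procollagen in the endoplasmic reticulum, averaged 8.43 ± 0.544 FPKM in knockdown and 1.13 ± 0.2 FPKM in control livers (SD, n = 3 each; log2 fold change 2.89 ± 0.17 SE, edgeR adjusted p = 7.8e-14). The lysyl hydroxylase gene LOC100699058 (plod1a) averaged 19.5 ± 0.362 FPKM in knockdown and 2.86 ± 0.195 FPKM in control livers (2.76 ± 0.09 SE, edgeR adjusted p = 5.32e-19). The prolyl 3-hydroxylases p3h1 (−0.55 ± 0.22 SE, edgeR adjusted p = 0.0258) and p3h3 (−0.54 ± 0.15 SE, edgeR adjusted p = 0.00242) were lower, and p3h1 no longer passed without the first knockdown library, the first control library or the second control library (edgeR adjusted p from 0.0507 to 0.201), or with limma on log2(FPKM + 0.1) (−0.49, limma adjusted p = 0.0514).

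Among 22 tested glycoproteins and proteoglycans of the matrix 13 were higher and 5 lower. cyr61 (ccn1), a secreted matricellular protein, averaged 20.6 ± 0.647 FPKM in knockdown and 0.198 ± 0.087 FPKM in control livers (SD, n = 3 each; log2 fold change 6.68 ± 0.19 SE, edgeR adjusted p = 1.2e-20). LOC100694433, microfibrillar-associated protein 2 by description and mfap5 in RefSeq, was higher by 4.20 ± 0.20 SE (edgeR adjusted p = 6.95e-16). The elastin gene LOC100694912 (elna, −1.53 ± 0.26 SE, edgeR adjusted p = 9.33e-06) and vtn, a gene for the plasma adhesion protein vitronectin (57.7 ± 4.44 FPKM in knockdown and 121 ± 4.65 FPKM in control livers, −1.08 ± 0.05 SE, edgeR adjusted p = 2.15e-15), were lower. The far more abundant vitronectin gene LOC100692624 (vtnb) did not pass (−0.02 ± 0.03 SE, edgeR adjusted p = 0.628). It averaged 1232 ± 23 FPKM in knockdown and 1239 ± 38.3 FPKM in control livers.

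Of 17 tested genes for other matrix proteases and inhibitors 9 were higher and 3 lower. Urokinase, plau, which generates plasmin, was higher by 3.47 ± 0.36 SE (edgeR adjusted p = 4.25e-09), and its inhibitor serpine2 by 2.80 ± 0.14 SE (edgeR adjusted p = 1.84e-15). bsg, basigin, which induces MMPs in mammals, averaged 54.1 ± 3.21 FPKM in knockdown and 223 ± 5.77 FPKM in control livers (SD, n = 3 each; −2.05 ± 0.05 SE, edgeR adjusted p = 2.91e-22), and the sheddase LOC100692440 (adam17b) was lower by a similar amount (−1.92 ± 0.29 SE, edgeR adjusted p = 2.24e-06). Its more abundant copy LOC100700935 (adam17a) averaged 8.4 ± 0.676 FPKM in knockdown and 7.63 ± 0.42 FPKM in control livers. That copy did not pass (0.13 ± 0.09 SE, edgeR adjusted p = 0.197). Of 23 tested partners of integrins in cell adhesion 15 were higher and 5 lower. LOC100692088 (tensin-2, 2.65 ± 0.07 SE, edgeR adjusted p = 7.02e-21) and pxn (paxillin, 1.94 ± 0.17 SE, edgeR adjusted p = 1.63e-10) were higher, and the adaptor crkl (−2.01 ± 0.20 SE, edgeR adjusted p = 1.46e-09) and LOC100700242 (talin-2, −1.48 ± 0.15 SE, edgeR adjusted p = 3.27e-09) were lower.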

How the data were processed

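Liver RNA of 3 elovl6 knockdown and 3 control libraries was selected with oligo-dT and sequenced as paired reads of 150 bases, per the labels' protocols. The submitters' processing notes name cutadapt 1.9 and HISAT; for the genome build, the counting program, its strand setting and its handling of multi-mapped reads, nothing was found in the labels or headers. The authors deposited a raw read count and an FPKM value per gene and library, per the file headers, and each FPKM equals the count divided by gene length and library total within a relative tolerance of 0.0001. Reads of near-identical copies and of overlapping antisense genes may therefore be shared or lost. Members and lists were chosen with earlier results of these data known.

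Counts were tested with edgeR 4.0.16 in R 4.3.3 (TMM scaling, quasi-likelihood test, 2-sided, Benjamini-Hochberg adjustment over all 11431 genes with a mean of at least 1 FPKM, no covariate), called at an adjusted p under 0.05; these genes hold 99% of reads. The fit was checked on simulated counts in which few genes changed, equally in both directions and with a common dispersion. These data differ far more widely, so that check cannot judge scaling or error rates here. Named are, per class, up to 4 called genes in each direction with the largest changes and no overlap, the most abundant genes and the most abundant gene not past, genes below the filter with at least 30 reads in a group, and 2 genes per direction of each other list; further tested members were added so that the 52 are complete, after their values were seen. Ratios of few reads carry exact 95% intervals, which cover counting error only, as does the floor of 3 reads. Alternatives used DESeq2 1.42.0, limma 3.58.1 on log2 of FPKM with a pseudocount of 1 or 0.1, other filters and scalings, a replicate block and each library left out. Libraries of a group differed by more than sampling noise (chi-square per degree of freedom 3.31 to 4.72).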

Additional observations from a re-analysis of the deposited data

How the results depend on the processing

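The count of higher genes, 33, and of lower genes, 9, was the same with DESeq2 size factors, total counts, the DESeq2 test and limma with either pseudocount. With no filter 54 were higher and 29 lower of 167, with a mean of at least 5 FPKM 8 were higher and 4 lower of 17, and with both group means of at least 1 FPKM, an alternative chosen after seeing the data, 20 were higher and 6 lower of 36; the number of genes tested changes by construction. Leaving out 1 library gave 32 to 33 higher and 9 to 11 lower. The replicate block gave 33 higher and 9 lower, and changed no call of a named gene. Deviations from the group means correlated at 0.001, 0.007 and 0.002 between same-numbered libraries, and at −0.009 to 0.007 over all pairs. Same-numbered libraries thus shared no variation that this check could see. It cannot show whether they were paired in handling. Of 1026 values of 73 named genes under alternatives, 1001 kept direction and call, 12 newly passed, 8 no longer passed and 5 changed sign. Those were LOC100696180 (0.01 with a mean of at least 5 FPKM and 0.01 with both group means of at least 1 FPKM) and itgb5 (−0.05 with no filter, −0.10 without the third knockdown library and −0.10 without the second control library; its range with 1 library left out was −0.10 to 0.19). Of the 42 members called, 41 kept their call under all alternatives that tested them, the exception being LOC100709069. Scaling and filters moved the median log2 fold change of all genes by −0.096 to 0.061. The shift of −0.096 came with no filter, so lower calls that appear only in that fit may follow it. With 3 libraries a group and possible pooling, differences between fish cannot be judged, and genes with few reads have wide intervals.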

Other observations

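Some matrix genes fall outside the wording that chose the members, because their descriptions open with other words, and were picked out after their values were seen. col11a1, described as a low quality prediction of the collagen alpha-1(XI) chain, a fibrillar chain that is abundant in cartilage, measured 28.2, 31.3 and 30.9 FPKM in knockdown libraries, against 0.034, 0.00917 and 0.00815 FPKM in control libraries. All knockdown libraries were far above all control libraries, with 9374 reads in knockdown and 6 in control libraries, a ratio per counted read of 1756 (exact 95% interval 807 to 4787, counting error only). Its fitted log2 fold change was 10.68 ± 0.15 SE (edgeR adjusted p = 4.51e-27), and 11.59 without the first control library. At 30.1 FPKM it exceeded every collagen among the members in knockdown livers. Of the alpha-1(XI) genes among the members, LOC100700290 had 3 reads in knockdown and 39 in control libraries, and LOC100695815 had 34 reads in knockdown and 86 in control libraries.

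mmp2, the 72 kDa gelatinase, measured 12.4, 12.8 and 14.7 FPKM in knockdown libraries, against 4.42, 2.96 and 3.96 FPKM in control libraries, without overlap (log2 fold change 1.80 ± 0.12 SE, edgeR adjusted p = 1.6e-12). LOC100703220, a stromelysin-1-like gene, had 1382 reads in knockdown and 148 in control libraries (3.38 ± 0.16 SE, edgeR adjusted p = 6.94e-16). The collagen alpha-2(V) gene LOC100712002 (col5a2a) was higher by 0.77 ± 0.18 SE (edgeR adjusted p = 0.000428). Below the filter, a nidogen-1 gene, LOC100698708, had 262 reads in knockdown and 44 in control libraries (2.63 ± 0.35 SE without a filter), and the collagen alpha-3(VI) gene LOC100709531 had 114 in knockdown and 496 in control libraries (−2.05 ± 0.24 SE). Red blood cell markers were lower for all 4 tested of 5, with sums of 25.9 to 27.6 FPKM in knockdown and 111 to 121 FPKM in control libraries, and skeletal muscle markers summed to 0.723 to 0.848 FPKM in knockdown and 0.378 to 1.2 FPKM in control libraries.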
